A study of Mus musculus with 6 samples.

Results

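A pair of clones of NIH/3T3 cells that carry the same knocked-out gene, Mki67, were set against each other: the 2 libraries of knockout clone 2 against the 2 of knockout clone 1, which are 4 of the 6 libraries of the series. Members were chosen by the sample titles alone. NIH/3T3 is an immortalised fibroblast line from embryos of Swiss albino mice. The other 2 libraries are wild-type (WT) cells, and their levels are given beside those of the clones. Genotype (Mki67-/- against wild type) was the only difference in the labels, and all cells grew in the same serum-containing medium with no treatment. Each knockout group is a single clone, so what belongs to a clone and what belongs to the knockout cannot be told apart within 1 group. The editing method, the passage of the clones and the origin of the replicates were not stated in the labels. If replicates came from 1 culture, the p-values reflect technical spread alone.

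Ki-67, the product of Mki67, is the protein that pathologists stain to find cycling cells. In mitosis it coats the chromosomes and keeps them apart, and in interphase it sits in the nucleolus and helps to place heterochromatin. NIH/3T3 cells are aneuploid and change as they are passaged, and cloning starts each population from 1 cell. A knockout clone can therefore differ from its parent, and from a sister clone, in more than the edited gene.

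Gene counts summed to 15491116 and 19678782 in the clone 1 libraries, 15087148 and 15862850 in clone 2, and 3873249 and 11377172 in WT, the shallowest being WT replicate 1. A floor of 3 counts was worth 0.152 to 0.199 CPM, the gene counts relative to the total of their library, in the clones and up to 0.775 CPM in WT. Library correlations of log2 CPM were 0.993 within each clone and 0.983 to 0.985 between the clones. The extraction protocol names 4T1, a mammary tumour line, where titles and sources name NIH/3T3. Epcam and Cdkn2a, the epithelial adhesion gene and the p16 and Arf locus that NIH/3T3 cells lack, had 0 counts in all 6 libraries. Krt8, an epithelial keratin, had 1 to 10 counts a library, while the mesenchymal filament gene Vim stood at 3777 and 3445 CPM in clone 1 and 3650 and 3546 in clone 2.

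Mki67 itself was low in both clones. It stood at 46.7 and 53.8 CPM in WT, 4.27 and 4.71 in clone 1 and 4.41 and 7.82 in clone 2, on chromosome 7 (chr7:135689784-135716361 in GRCm38, minus strand). All 4 clone libraries lay far below both WT libraries, and clone 2 replicate 2 was the highest of the 4. The log2 difference between clones, given here and below as the fitted value ± its standard error with edgeR's Benjamini-Hochberg adjusted p, was 0.44 ± 0.245 with an adjusted p of 0.434. The other clone 2 library lay between the clone 1 libraries, so the clones overlapped. Reads from an edited allele are still counted in such a table, so these levels check the labels and not the protein. Within 5 Mb of Mki67 on either side, 50 other genes were tested, with a median log2 difference of 0.08. Of these, 1 was called higher in clone 2 (1.18% of all genes tested were) and 4 lower (2.36% of all were). The nearest of these 5 was Ptpre, a receptor phosphatase gene that ends just before Mki67 begins on the chromosome. Its log2 difference was -0.76 ± 0.182 with an adjusted p of 0.0328. It was -0.04 when strand was ignored, and its adjusted p was 0.177 without clone 1 replicate 2, 0.128 without clone 2 replicate 1 and 0.387 without clone 2 replicate 2.

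Of 13120 genes tested, 465 (3.54%) were called between the clones at an adjusted p below 0.05. They comprised 155 genes higher in clone 2 (1.18%) and 310 lower (2.36%), so 66.7% of the calls were lower. At 2-fold or more, 72 were higher (0.549%) and 154 lower (1.17%), and at 8-fold or more 9 were higher and 33 lower. The same fit called 4154 genes between clone 1 and WT (31.7%) and 3592 between clone 2 and WT (27.4%). These contrasts share libraries with the clone contrast and are given side by side only. The median difference over all genes was 0.01, and 51.5% of genes lay above 0. With the trend of GC content and gene length removed, 894 genes were called and 55.4% of them were lower. Leaving out 1 library moved the count from 156 (without clone 2 replicate 2) to 1208 (without WT replicate 2), with 164 without clone 2 replicate 1, 203 and 247 without clone 1 replicates 1 and 2, and 1202 without WT replicate 1.

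**Figure D1:**
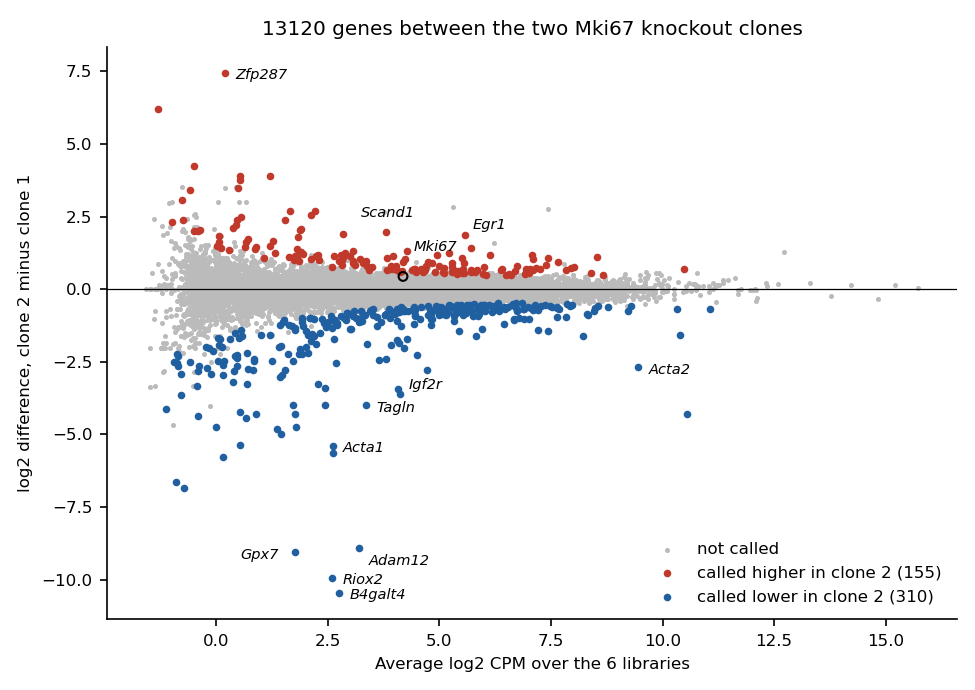
Each point is 1 of 13120 genes, by its average log2 CPM over the 6 libraries (horizontal) and its fitted log2 difference, clone 2 minus clone 1 (vertical). The 310 genes called lower reach further from 0 than the 155 called higher, and Mki67, circled, sits near 0 at 0.44. Genes with 0 counts in a clone have fitted values that are no estimate of a fold.

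The sharpest differences were genes with reads in one clone and none in the other. With an average of at least 1 CPM in the clone that had reads, 5 protein-coding genes had 0 counts in both clone 2 libraries and 1 had 0 counts in both clone 1 libraries. B4galt4, a galactosyltransferase gene of glycan synthesis (chr16:38742264-38769049), stood at 5.42 and 6.86 CPM in WT and 12.96 and 13.2 in clone 1, with 0 in both clone 2 libraries. Against a floor of 3 counts over the group, clone 2 was at least 135-fold lower. Riox2, a ribosomal oxygenase gene (chr16:59471775-59492461), stood at 11.1 and 9.49 CPM in WT and 8.44 and 9.68 in clone 1, and was at least 92.7-fold lower in clone 2. These 2 genes lie on the same chromosome, some way apart, and the genes around them are described with the chromosomes.

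Gpx7, which encodes a glutathione peroxidase of the endoplasmic reticulum (chr4:108400390-108406961), stood at 5.94 and 5.45 CPM in WT and 4.88 and 5.04 in clone 1 and was at least 51.0-fold lower in clone 2. Adam12, which encodes a membrane metalloprotease (chr7:133883199-134232146), stood at 30.5 and 27.9 CPM in WT. It was already down to 4.88 and 4 in clone 1 and had 0 counts in clone 2, at least 46.3-fold lower. Adam12 lies within 5 Mb of Mki67, and its neighbour Fank1, chosen after its values were seen, was at 0.775 and 0.264 CPM in WT, 2.79 and 2.84 in clone 1 and 0.693 and 0.53 in clone 2. Pilra, an inhibitory receptor gene, showed another order, with 0 and 1 count in WT, 22 and 15 in clone 1 and 0 in clone 2 (at least 10.9-fold lower). Sult4a1, a sulfotransferase gene, had 0 counts in WT and clone 2 and 19 and 13 in clone 1, so clone 2 was at least 9.39-fold lower; its adjusted p was 0.0504 without clone 2 replicate 1.

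In the opposite direction the genes were fewer and weaker. Zfp287, a zinc finger gene (chr11:62700356-62731905), had 9 and 21 counts in WT, 27 and 23 in clone 2 and 0 in both clone 1 libraries, so clone 2 was at least 18.9-fold higher. Gprin3, a G protein-interacting gene on chromosome 6, had 0 counts in WT and clone 1 and 11 and 10 in clone 2, at least 7.95-fold higher. Its adjusted p rose to 0.0939 without clone 1 replicate 1 and 0.0612 without clone 1 replicate 2.

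Among well-expressed protein-coding genes (average log2 CPM of at least 3) the 12 largest falls in clone 2 ran from Adam12 to Pnma5. Igf2r, the receptor that carries IGF2 and mannose 6-phosphate proteins to lysosomes, stood at 25.3 and 50.2 CPM in WT, 12.7 and 14.6 in clone 1 and 1.45 and 1.06 in clone 2. Levels stepped down from WT to clone 1 to clone 2 with no overlap, and the clone difference was -3.43 ± 0.324 with an adjusted p of 1.8e-05. Soga1, a microtubule-linked gene, was at 30.5 and 26.4 CPM in WT, 24.6 and 22.8 in clone 1 and 1.95 and 1.92 in clone 2. Here clone 1 lay near WT and clone 2 stood apart, with a difference of -3.61 ± 0.201 with an adjusted p of 1.72e-07. Anxa8, an annexin gene, went the other way against WT: 1.55 and 2.72 CPM in WT, 54.4 and 45.3 in clone 1 and 9.14 and 11.9 in clone 2, a clone difference of -2.25 ± 0.184 with an adjusted p of 5.27e-06. Dusp4, which encodes a MAP kinase phosphatase, was highest in clone 1, at 5.94 and 6.15 CPM in WT, 29.98 and 27.9 in clone 1 and 8.2 and 7.03 in clone 2 (difference -1.93 ± 0.167 with an adjusted p of 8.03e-06). Dmpk, the myotonic dystrophy kinase gene, was likewise highest in clone 1, with clone 2 within the WT range, at 4.65 and 6.5 CPM in WT, 18.9 and 18.2 in clone 1 and 4.85 and 5.17 in clone 2 (difference -1.89 ± 0.187 with an adjusted p of 2.73e-05). The remaining falls outside the actin genes were Srpx2 at -2.44, Plac8 at -2.03 and Pnma5 at -1.86, each called whichever library was left out.

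The 12 largest rises were smaller, from 1.12 to 1.98 on the log2 scale. Scand1, a SCAN domain gene, led at 25.3 and 19.95 CPM in WT, 4.73 and 4.13 in clone 1 and 15.6 and 19.6 in clone 2, a difference of 1.98 ± 0.204 with an adjusted p of 4.12e-05. Its clone 2 libraries lay just below the WT libraries and its clone 1 libraries far below both. Ptn, which encodes the secreted growth factor pleiotrophin, was at 20.9 and 39.9 CPM in WT, 29.5 and 37.9 in clone 1 and 95.6 and 85.7 in clone 2. Its WT and clone 1 ranges overlapped and clone 2 stood above all other libraries (difference 1.43 ± 0.201 with an adjusted p of 0.000799). Pcx, the pyruvate carboxylase gene, likewise was highest in clone 2, at 33.6 and 26.4 CPM in WT, 24.9 and 22.9 in clone 1 and 53.1 and 61.6 in clone 2 (difference 1.26 ± 0.157 with an adjusted p of 0.00027). Map2k6, a kinase gene of the p38 pathway, was instead highest in WT, at 32.8 and 38.2 CPM in WT, 6.86 and 7.75 in clone 1 and 18.1 and 18.6 in clone 2 (difference 1.33 ± 0.164 with an adjusted p of 0.000233). Gng11 (1.31) and Spp1 (1.12), which encode a G protein gamma subunit and osteopontin, had this same order of WT above clone 2 above clone 1. Dhrs9 and Capn6 were at 1.13 and 1.16. The adjusted p of Dhrs9 was 0.352 without clone 1 replicate 1, 0.154 without clone 2 replicate 1 and 0.198 without clone 2 replicate 2, and that of Capn6 was 0.0691 without clone 2 replicate 1.

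The 41 gene lists used here were read by their members' calls, with 3.54% of all genes called as the background. Actin and contractile genes had 9 of 29 tested members called lower and 1 higher, with a median log2 difference of -0.34 against 0.01 over all genes. Immediate early factors had 5 of 24 called higher and 1 lower, yet their median was -0.11, so the members that rose and the median differ in sign. Chemokines and cytokines had 4 of 17 higher and 2 lower (median 0.02), growth factor receptors and ligands 1 of 29 higher and 5 lower (-0.04), and the Wnt pathway 0 of 19 higher and 4 lower (-0.03). In 11 of the lists no member was called: of their 266 tested members, 34 had an unadjusted p below 0.05 with edgeR (2030 of all 13120 genes, or 15.5%, did), and DESeq2 and limma-voom called 1 each. These 11 include interferon-stimulated genes (18 tested), cholesterol biosynthesis (26), DNA damage repair (36), clustered protocadherins (35) and the partners of Ki-67 at the chromosome periphery and nucleolus (22).

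**Figure D2:**
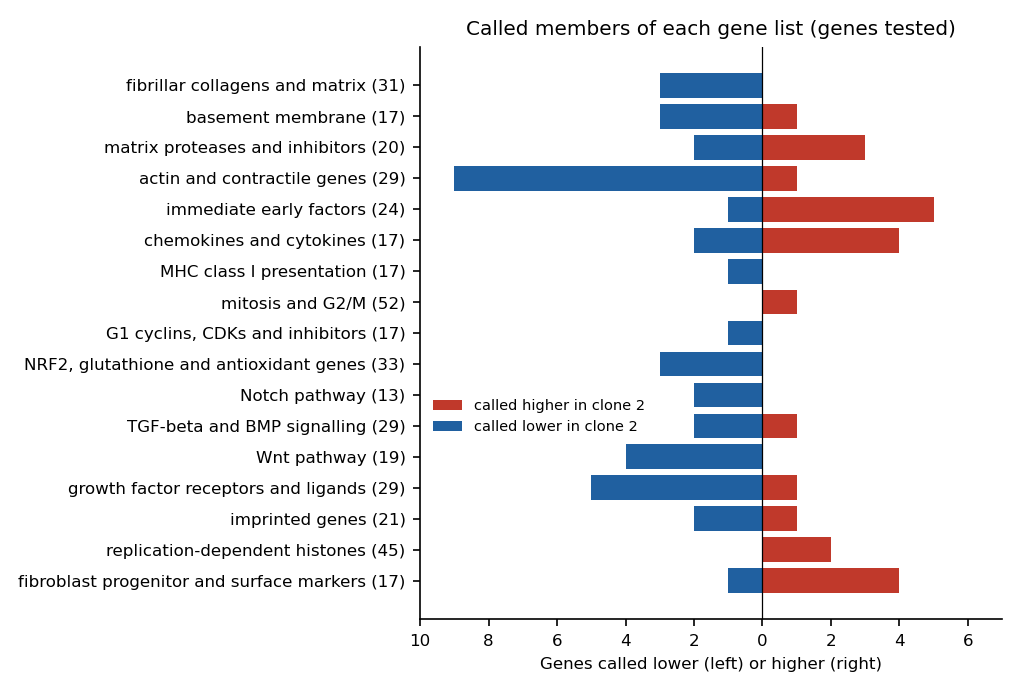
Bars count the members of each described list with at least 10 tested genes (number tested in brackets) that were called lower (left) or higher (right) in clone 2 than in clone 1. The actin and contractile list has the longest bar, 9 lower of 29, and the immediate early list the longest to the right, 5 higher of 24.

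Actin and contractile genes encode the smooth muscle-type actins, myosin chains and actin-binding proteins that fibroblasts raise when they form stress fibres. Many are driven by serum response factor, which binds a short A and T rich element called the CArG box. Serum response factor also drives immediate early genes, which are switched on within minutes of a growth signal. In clone 2 the called members of the first group were mostly lower than in clone 1 and those of the second mostly higher. The start sites of called members were searched for that element. Of the 16 called members of both lists, 11 have a promoter window of 250 bases before to 50 after a start site in the RefSeq table for GRCm38.p6, and 3 of the 11 hold a CArG box. A box was counted only as CCWWWWWWGG, where W is A or T, with no mismatch allowed. That pattern reads the same on both strands. Stretches of 110 bases around the box, all upstream of the start site of their window, are printed 5′ to 3′ along the gene with the box in capitals.
Acta1: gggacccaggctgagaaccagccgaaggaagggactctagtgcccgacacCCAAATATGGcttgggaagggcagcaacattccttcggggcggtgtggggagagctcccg
Myl9: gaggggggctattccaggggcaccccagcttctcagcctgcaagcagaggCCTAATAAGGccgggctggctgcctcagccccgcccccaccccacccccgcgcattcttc
Egr2: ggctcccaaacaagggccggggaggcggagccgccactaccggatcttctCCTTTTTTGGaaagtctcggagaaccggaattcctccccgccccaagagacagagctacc
They lie at chr8:123894789-123894898 (minus strand), chr2:156775253-156775362 (plus strand) and chr10:67537444-67537553 (plus strand). The box begins 73, 161 and 72 bases before the start site. A CArG box was found in 1.59% of the 8940 tested protein-coding genes with a window, in 10 of 224 called lower (4.46%) and in 2 of 106 called higher (1.89%). Acta2 has no exact match in its window, and a box that departs from the pattern by a base would not be found. These are matches of letters and say nothing of binding.

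Acta2, the smooth muscle actin gene, was the most abundant of the genes that fell, at 972 and 783 CPM in WT, 1028 and 1066 in clone 1 and 158 and 168 in clone 2. Clone 1 lay just above WT and both clone 2 libraries were far below, a difference of -2.69 ± 0.154 with an adjusted p of 1.83e-07. Tagln, which encodes the actin-binding protein transgelin, was at 23.2 and 16.2 CPM in WT, 12.7 and 13.4 in clone 1 and 0.946 and 0.663 in clone 2 (difference -4.00 ± 0.283 with an adjusted p of 1.61e-06). Myl9, the regulatory light chain of smooth muscle myosin whose stretch is printed above, was at 14.5 and 9.4 CPM in WT, 5.49 and 7.04 in clone 1 and 0.504 and 0.663 in clone 2 (difference -3.40 ± 0.34 with an adjusted p of 3.01e-05). For Tagln and Myl9 the levels stepped down from WT to clone 1 to clone 2 without overlap. In a bulk sample, fewer cells that express a gene and less RNA per cell cannot be told apart.

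Other members had clone 1 above WT. Acta1, the skeletal muscle actin gene with a box 73 bases before its start, was at 2.32 and 1.67 CPM in WT, 14.2 and 13.4 in clone 1 and 0.315 and 0.331 in clone 2, so WT lay between the clones (difference -5.38 ± 0.295 with an adjusted p of 1.72e-07). Actg2, the enteric smooth muscle actin gene, had the same order at 26.6 and 22.5 CPM in WT, 47.2 and 47.1 in clone 1 and 6.18 and 7.62 in clone 2 (difference -2.77 ± 0.171 with an adjusted p of 4.07e-07). The actin genes share near-identical coding stretches, and reads that fit more than 1 gene are not counted. Tmsb4x, a thymosin that binds actin monomers, fell in steps from 710.3 and 684 CPM in WT through 137 and 136 in clone 1 to 47.03 and 42.9 in clone 2 (difference -1.60 ± 0.129 with an adjusted p of 4.53e-06); it has near-identical copies and is uncertain. Its relative Tmsb10 was the 1 member called higher at 0.53 ± 0.134 with an adjusted p of 0.0408, which was 0.177 without clone 1 replicate 1, 0.201 without clone 1 replicate 2, 0.223 without clone 2 replicate 1 and 0.44 without clone 2 replicate 2. Lmod1, Des and Myh9 were called lower at -1.66, -0.90 and -0.69, but the adjusted p of Lmod1 was 0.126 without clone 1 replicate 1, 0.255 without clone 1 replicate 2, 0.288 without clone 2 replicate 1 and 0.401 without clone 2 replicate 2, that of Des 0.0928 without clone 2 replicate 1 and 0.0681 without clone 2 replicate 2 and that of Myh9 0.174 without clone 1 replicate 1, 0.0577 without clone 1 replicate 2, 0.173 without clone 2 replicate 1 and 0.358 without clone 2 replicate 2. Over the 6 fits that left out 1 library, 6 to 14 members were called lower and 0 to 1 higher.

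The list of skeletal muscle markers shares members with this group. Of the 14 markers 5 were tested and 3 (Acta1, Tnnt2 and Des) were called lower. Acta1 and Des are also in the actin and contractile list, so their calls count in both lists. The summed level was 16.01 and 17.8 CPM in WT, 113 and 111 in clone 1 and 51.5 and 45.6 in clone 2. Tnnt2, a troponin of heart and developing muscle, made up most of it in the clones, at 4.65 and 5.45 CPM in WT, 75.2 and 75.8 in clone 1 and 38.9 and 32.5 in clone 2 (difference -1.08 ± 0.14 with an adjusted p of 0.000349). Myf5, Myf6, Myod1 and Myog, the factors that define muscle cells, had 0 counts in all 6 libraries.

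Egr1, the zinc finger factor that marks growth signalling, led the immediate early genes at 57.6 and 74.8 CPM in WT, 16.6 and 16.2 in clone 1 and 60.5 and 59.9 in clone 2. Clone 2 lay within the WT range and clone 1 far below it, a difference of 1.87 ± 0.149 with an adjusted p of 4.53e-06. Ier2, a nuclear protein of the same early wave, was at 92.7 and 91.7 CPM in WT, 36.7 and 37.8 in clone 1 and 80.4 and 86.7 in clone 2 (difference 1.16 ± 0.125 with an adjusted p of 5.87e-05), again with clone 2 near WT. Fos, a subunit of the AP-1 factor, was at 2.84 and 3.6 CPM in WT, 1.27 and 0.646 in clone 1 and 2.77 and 2.85 in clone 2 (difference 1.49 ± 0.321 with an adjusted p of 0.0168), and its adjusted p was 0.142 without clone 1 replicate 2, 0.0972 without clone 2 replicate 1 and 0.131 without clone 2 replicate 2. Egr3 and Egr2 were called higher at 1.14 and 1.06. The adjusted p of Egr3 was 0.081 without clone 1 replicate 1, 0.055 without clone 1 replicate 2, 0.0691 without clone 2 replicate 1 and 0.104 without clone 2 replicate 2, and that of Egr2 was 0.288 without clone 1 replicate 1, 0.103 without clone 1 replicate 2, 0.141 without clone 2 replicate 1 and 0.336 without clone 2 replicate 2. Dusp1, a phosphatase gene of the early wave that switches MAP kinases off, went against the others at 108 and 91.3 CPM in WT, 175.4 and 164 in clone 1 and 81.6 and 87.2 in clone 2 (difference -1.01 ± 0.133 with an adjusted p of 0.000436). Between 2 and 6 members were called higher and 1 to 5 lower over the fits that left out 1 library.

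**Figure D3:**
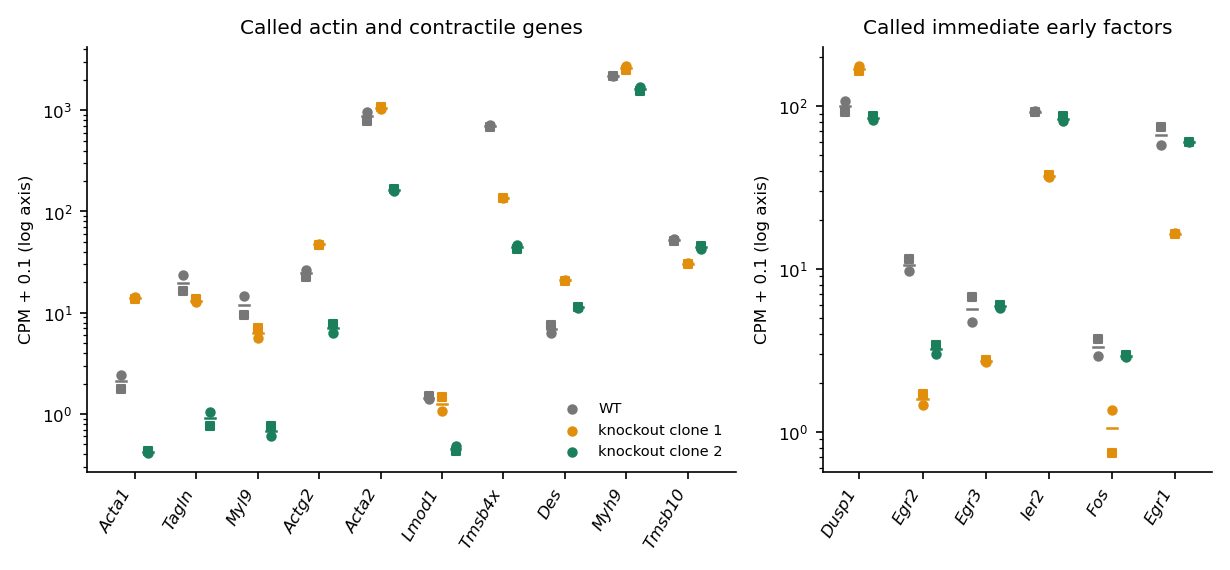
CPM of each called member of the actin and contractile list (left) and the immediate early list (right) in all 6 libraries, on a log axis after adding 0.1. Circles are replicate 1, squares replicate 2 and lines the mean of 2. Clone 2 lies below clone 1 for 9 of 10 genes on the left and above it for 5 of 6 on the right.

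Matrix and secreted genes differed singly and in both directions. Fibrillar collagens and matrix genes had 3 of 31 tested members lower and 0 higher, with a median of 0.03. Col12a1, a collagen that decorates fibrils, was at 4.39 and 10.4 CPM in WT, 8.08 and 12.1 in clone 1 and 0.189 and 0.199 in clone 2, close to silent in clone 2 alone (difference -5.63 ± 0.471 with an adjusted p of 6.12e-06). Both clone 2 libraries stood at the floor of 3 counts, so the size of this difference is imprecise. Fmod, the fibril-binding proteoglycan fibromodulin, was at 0 and 0.176 CPM in WT, 11.5 and 14.1 in clone 1 and 0.693 and 0.928 in clone 2, so that clone 1 alone expressed it well (difference -3.97 ± 0.273 with an adjusted p of 1.26e-06). Basement membrane genes had 1 of 17 higher and 3 lower (median -0.10). Lamb3, a laminin chain of epithelia, was at 0.775 and 1.76 CPM in WT, 10.4 and 9.62 in clone 1 and 1.07 and 0.994 in clone 2, and clone 2 lay in the WT range (difference -3.27 ± 0.262 with an adjusted p of 4.53e-06).

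Matrix proteases and inhibitors had 3 of 20 higher and 2 lower (median -0.03). Plau, the urokinase gene, was highest in WT and lowest in clone 1, at 157 and 156 CPM in WT, 64.5 and 55.4 in clone 1 and 103 and 106 in clone 2 (difference 0.79 ± 0.129 with an adjusted p of 0.0027), and its adjusted p was 0.0651 without clone 1 replicate 2 and 0.0522 without clone 2 replicate 2.

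NRF2, glutathione and antioxidant genes had 0 of 33 higher and 3 lower (median -0.05), of which Gpx7 is given above. Gclm, a subunit gene of the enzyme that starts glutathione synthesis, was at 40.5 and 43.3 CPM in WT, 78.2 and 83.3 in clone 1 and 55.4 and 48.1 in clone 2 (difference -0.64 ± 0.129 with an adjusted p of 0.0109), with clone 2 between WT and clone 1; its adjusted p was 0.0573 without clone 1 replicate 1, 0.0825 without clone 1 replicate 2, 0.0691 without clone 2 replicate 1 and 0.27 without clone 2 replicate 2. Hmox1, the haem oxygenase gene, was at 42.3 and 35.5 CPM in WT, 45.3 and 44.4 in clone 1 and 30.6 and 30.4 in clone 2 (difference -0.56 ± 0.142 with an adjusted p of 0.0417); its adjusted p was 0.206 without clone 1 replicate 1, 0.112 without clone 1 replicate 2, 0.299 without clone 2 replicate 1 and 0.356 without clone 2 replicate 2.

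Tnfrsf11b, which encodes the decoy receptor osteoprotegerin, was at 3.1 and 3.87 CPM in WT, 1.17 and 1.68 in clone 1 and 6.81 and 5.17 in clone 2 (difference 2.09 ± 0.265 with an adjusted p of 0.000316). Cxcl5, a chemokine that draws neutrophils, rose stepwise at 7.75 and 4.83 CPM in WT, 23.3 and 27.8 in clone 1 and 57.9 and 57.5 in clone 2 (difference 1.18 ± 0.164 with an adjusted p of 0.000728). Ccl2, a chemokine that draws monocytes, fell stepwise at 20.1 and 20.7 CPM in WT, 12.3 and 14.9 in clone 1 and 6.05 and 6.43 in clone 2 (difference -1.13 ± 0.179 with an adjusted p of 0.00223). Leukocyte markers summed to 50.8 and 59.1 CPM in WT, 55.8 and 61.6 in clone 1 and 57.9 and 60.7 in clone 2, with Adgre1 and Cd3e at 0 counts.

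Of the signalling lists, the Notch pathway had 2 of 13 tested members lower and 0 higher (median -0.16). Mfng, a glycosyltransferase gene that tunes Notch receptors, had 0 CPM in WT, 2.29 and 2.26 in clone 1 and 0.063 and 0 in clone 2. Its 80 counts in clone 1 against 1 in clone 2 give a ratio of 70.4, with an exact 95% interval for counting error alone of 12.3 to 2815 and an adjusted p of 0.000119. Wnt10a, a Wnt ligand gene, was at 0.258 and 0.176 CPM in WT, 2.9 and 1.87 in clone 1 and 0.126 and 0.398 in clone 2 (difference -3.19 ± 0.465 with an adjusted p of 0.00108), again with reads mainly in clone 1. Both WT libraries and clone 2 replicate 1 lay below the floor of 3 counts, so the size of this difference is imprecise. In the TGF-beta and BMP list (1 of 29 higher, 2 lower, median -0.10), Ltbp2, which encodes a latent TGF-beta binding protein family member, was at 93.5 and 121 CPM in WT, 290.0 and 304 in clone 1 and 102 and 118 in clone 2 (difference -1.44 ± 0.142 with an adjusted p of 2.66e-05). Imprinted genes had 1 of 21 higher and 2 lower (median -0.09). Snrpn, the paternally expressed splicing protein gene, was at 9.55 and 8.53 CPM in WT, 2.64 and 2.84 in clone 1 and 10.3 and 10.4 in clone 2, with clone 2 just above WT (difference 1.91 ± 0.202 with an adjusted p of 5.15e-05).

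Fibroblast progenitor and surface markers had 4 of 17 higher and 1 lower (median 0.18). Cd34, a sialomucin of progenitor fibroblasts, was at 355 and 379.9 CPM in WT, 53.2 and 44.7 in clone 1 and 104 and 102 in clone 2, low in both clones and lowest in clone 1 (difference 1.07 ± 0.134 with an adjusted p of 0.000278). Vcam1, an adhesion gene, had the same order at 0.80, with an adjusted p of 0.0782 without clone 1 replicate 1, 0.055 without clone 1 replicate 2 and 0.173 without clone 2 replicate 1. In the MHC class I list 1 of 17 was lower and 0 higher (median -0.19): H2-K1 was at 75.4 and 69.4 CPM in WT, 33.6 and 32.99 in clone 1 and 17.4 and 17.8 in clone 2 (difference -0.93 ± 0.14 with an adjusted p of 0.00147), and it too has near-identical copies. H2-K1 lies on chromosome 17, where the median over all 621 tested genes was -0.19 as well. How far the median of the list follows chromosome position was not tested. Among epithelial markers, of which 2 of 13 were tested, Krt7 was at 1.03 and 0.703 CPM in WT, 8.59 and 9.3 in clone 1 and 2.33 and 2.45 in clone 2 (difference -1.90 ± 0.214 with an adjusted p of 0.000103). The epithelial sum was 2.07 and 2.20 CPM in WT, 10.8 and 10.97 in clone 1 and 3.66 and 3.78 in clone 2, with Epcam, Krt19, Cldn7 and Esrp1 at 0 counts. Its part in the other differences was not tested. Neural and glial markers had 1 of 3 tested members lower, Gap43, a growth cone protein gene, at 8.78 and 9.84 CPM in WT, 1.42 and 1.16 in clone 1 and 0.063 and 0 in clone 2. Its 46 counts in clone 1 against 1 in clone 2 give a ratio of 40.5 (exact 95% interval for counting error 6.91 to 1633) with an adjusted p of 0.000728. The sum of that list was 9.29 and 11.8 CPM in WT, 4.93 and 4.58 in clone 1 and 3.91 and 4.51 in clone 2, with Nefl, S100b, Sox10 and Sox2 at 0.

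Few genes of the proliferation lists were called, though members of several of the lists lay mostly above 0. Of 52 tested genes of mitosis and G2/M 1 was called higher and 0 lower, while the median was 0.23 and 45 members lay above 0. That 1 gene was Mad2l1, of the spindle checkpoint, at 64.5 and 66.01 CPM in WT, 56.00 and 54.7 in clone 1 and 77.98 and 77.5 in clone 2 (difference 0.49 ± 0.121 with an adjusted p of 0.0398); its adjusted p was 0.234 without clone 1 replicate 1, 0.221 without clone 1 replicate 2, 0.321 without clone 2 replicate 1 and 0.374 without clone 2 replicate 2. None of 43 tested genes of DNA replication was called with edgeR (7 at an unadjusted p below 0.05, where 15.5% of all genes lay, 1 by DESeq2 and 1 by limma-voom), and their median was -0.06. Replication-dependent histones, whose transcripts lack a poly(A) tail and are made in S phase, had a median of 0.39, with 43 of 45 above 0 and 2 called higher. Their count of calls ran from 0 to 27 when 1 library was left out. Hist1h1a, a linker histone, was at 208 and 159 CPM in WT, 208 and 179 in clone 1 and 283 and 333 in clone 2 (difference 0.67 ± 0.157 with an adjusted p of 0.03), with an adjusted p of 0.102 without clone 1 replicate 1, 0.237 without clone 1 replicate 2, 0.0851 without clone 2 replicate 1 and 0.405 without clone 2 replicate 2. Among G1 regulators 12 of 17 lay above 0, with a median of 0.07, while 1 was called lower and 0 higher. The gene called lower was Cdkn1a, which encodes the inhibitor p21, at 87.8 and 92.4 CPM in WT, 140.0 and 144 in clone 1 and 70.2 and 69.4 in clone 2 (difference -1.03 ± 0.119 with an adjusted p of 0.000131). WT lay between the clones.

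Of 230 tested genes of small RNA, ribozyme and rRNA classes, 11 were called higher and 2 lower. Over all genes tested, 1.18% were called higher and 2.36% lower. The median of the 230 was 0.11, against 0.01 over all genes. The summed level of the 5 classes was 54707 and 51498 CPM in clone 1, 51713 and 62395 in clone 2 and 78025 and 74856 in WT. The clones overlapped in this sum, most of which came from genes annotated as misc_RNA. Small nuclear RNA genes did not overlap, at 6242 and 6213 CPM in clone 1 and 7527 and 8620 in clone 2. Nor did ribozyme genes, at 323 and 317 CPM in clone 1 and 485 and 530 in clone 2. The snoRNA and misc_RNA sums overlapped, and the rRNA sum was lower in clone 2. One rRNA gene annotated on chromosome 17, CT010467.1, had 111 and 2220 CPM in WT, 4382 and 1970 in clone 1 and 102 and 224 in clone 2. Its replicates differed widely within WT, rRNA copies are near-identical, and the libraries were depleted of rRNA, so the gene is uncertain. Of long non-coding RNA genes, Lncenc1 was at 0.775 and 0.791 CPM in WT, 31.8 and 29.95 in clone 1 and 6.43 and 5.24 in clone 2 (difference -2.40 ± 0.176 with an adjusted p of 2.04e-06) and Gm12056 at 1.29 and 1.76 CPM in WT, 8.13 and 7.42 in clone 1 and 2.65 and 2.45 in clone 2 (difference -1.61 ± 0.216 with an adjusted p of 0.000506), both highest in clone 1. The 1 such gene called higher, 1810058I24Rik, lies on chromosome 6 and had an adjusted p of 0.199 without clone 1 replicate 1, 0.181 without clone 1 replicate 2, 0.131 without clone 2 replicate 1 and 0.576 without clone 2 replicate 2.

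Differences were not spread evenly over the chromosomes. The median over tested genes was 0.23 on chromosome 6 and -0.17, -0.18 and -0.19 on chromosomes 12, 15 and 17, while the other 16 lay between -0.04 and 0.10. The spread from lowest to highest was 0.429, against 0.132 for replicate 2 minus replicate 1 of clone 1 and 0.0918 for clone 2. In each of the 4 pairs of a clone 2 with a clone 1 library the spread was 0.410 to 0.459. On chromosome 17 only 17.9% of 621 genes lay above 0, on chromosome 12 22.5% of 488 and on chromosome 15 22.6% of 540, with 51.5% over all genes. On chromosome 6, 72.5% of 648 did. Against WT, the chromosome 17 median was 0.11 in clone 1 and -0.09 in clone 2, and the chromosome 12 median 0.34 and 0.15. For chromosome 6 they were -0.15 and 0.03.

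**Figure D4:**
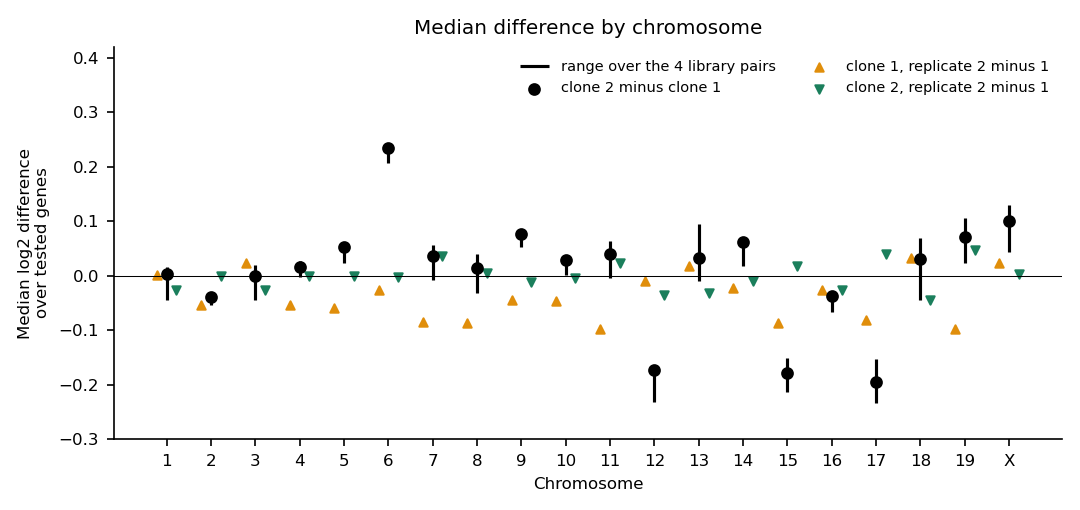
Dots give the median fitted log2 difference, clone 2 minus clone 1, over the tested genes of each chromosome, and bars the range of that median over the 4 pairs of single libraries (from log2 CPM with a prior count of 2, so a dot can lie past its bar). Triangles give replicate 2 minus replicate 1 within each clone. Chromosomes 6, 12, 15 and 17 stand apart, at 0.23, -0.17, -0.18 and -0.19.

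Calls followed the medians only in part. On chromosome 6, 39 genes were called higher (6.02%, background 1.18%) and 21 lower (3.24%, background 2.36%). On chromosomes 12, 15 and 17, 16, 29 and 27 were called lower (3.28%, 5.37% and 4.35%). Chromosome 16 had a median of -0.04 but the highest share called lower, 31 of 416 (7.45%).

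Running medians over 31 neighbouring protein-coding genes show where along a chromosome the difference sits. Windows at least 0.3 from the median of all genes made up 406 of 10688 (3.799%), all of them on chromosomes 6, 12, 13, 15 and 16. For replicate 2 minus replicate 1 of clone 1, 224 windows (2.10%) passed the same limit, all of them above it and scattered over 13 chromosomes, the most on chromosome 13 (48). For clone 2 replicates 0 did, the most extreme window being 0.27. Clone 1 replicates thus differed by position too, and each segment below is given with the median difference between replicates. Segments are runs of windows past that limit in clone 2 minus clone 1. They were chosen by the same values that are described, so their signs, calls and medians follow in part from that choice. Over all genes tested, 1.18% were called higher and 2.36% lower.

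The segment with the lowest single window (-0.67) lies on chromosome 16 from 34745210 to 59492461, Mylk to Riox2 in GRCm38, and spans 24.7 Mb. All but 2 of its 80 tested protein-coding genes lay below 0, 26 were called lower and 0 higher, and the median was -0.49. In single library pairs the median ran from -0.66 to -0.42, clone 1 replicates differed by 0.17 and clone 2 replicates by -0.03. The 15 genes on either side had medians of 0.12 and 0.00. Against WT the segment's median was 0.31 in clone 1 and -0.14 in clone 2. B4galt4 and Riox2, silent in clone 2, both lie in it. Phldb2, which encodes an adaptor of cell adhesion sites, was at 23.2 and 24.2 CPM in WT, 57.6 and 93.2 in clone 1 and 26.7 and 28.4 in clone 2 (difference -1.45 ± 0.185 with an adjusted p of 0.00033). Cd47, the cell surface signal against phagocytosis, was at 32.8 and 37.00 CPM in WT, 33.6 and 32.9 in clone 1 and 15.6 and 17.03 in clone 2 (difference -1.03 ± 0.147 with an adjusted p of 0.00083), with clone 1 at the WT level.

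Chromosome 6 held 4 of the 8 longest segments. Near its start, 25 genes from Flnc to Akr1b10 (29433256 to 34396950) had a median of -0.62, with 24 below 0 and 12 called lower. Against WT that segment was at 0.73 in clone 1 and 0.06 in clone 2, replicates differed by -0.02 and -0.05, and library pairs by -0.67 to -0.59. Slc35b4, a nucleotide sugar transporter gene in it, was at 73.8 and 66.7 CPM in WT, 135 and 128 in clone 1 and 60.5 and 55.7 in clone 2 (difference -1.18 ± 0.127 with an adjusted p of 6.14e-05). Just beyond it the sign turned: the 57 genes from Mtpn to Fam221a (35508906 to 49390539) had a median of 0.40, with 6 called higher and 2 lower. The 42 genes from Inmt to Ggcx (55170626 to 72430712) followed at 0.34 with 7 higher and 0 lower, and the 106 from Tmsb10 to Lrig1 (72957347 to 94700158) at 0.37 with 10 higher and 1 lower. Against WT these 3 were at -0.41, -0.19 and -0.46 in clone 1 and at -0.02, 0.17 and -0.13 in clone 2. Clone 1 replicates differed in them by 0.05, -0.06 and -0.12 and clone 2 replicates by 0.01, -0.05 and 0.00. Ptn lies in the first of the 3. Actg2, with a difference of -2.77, lies in the last, against the direction of its neighbours. Tmsb10, called higher at 0.53, is the first gene of that same segment, whose median was 0.37.

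**Figure D5:**
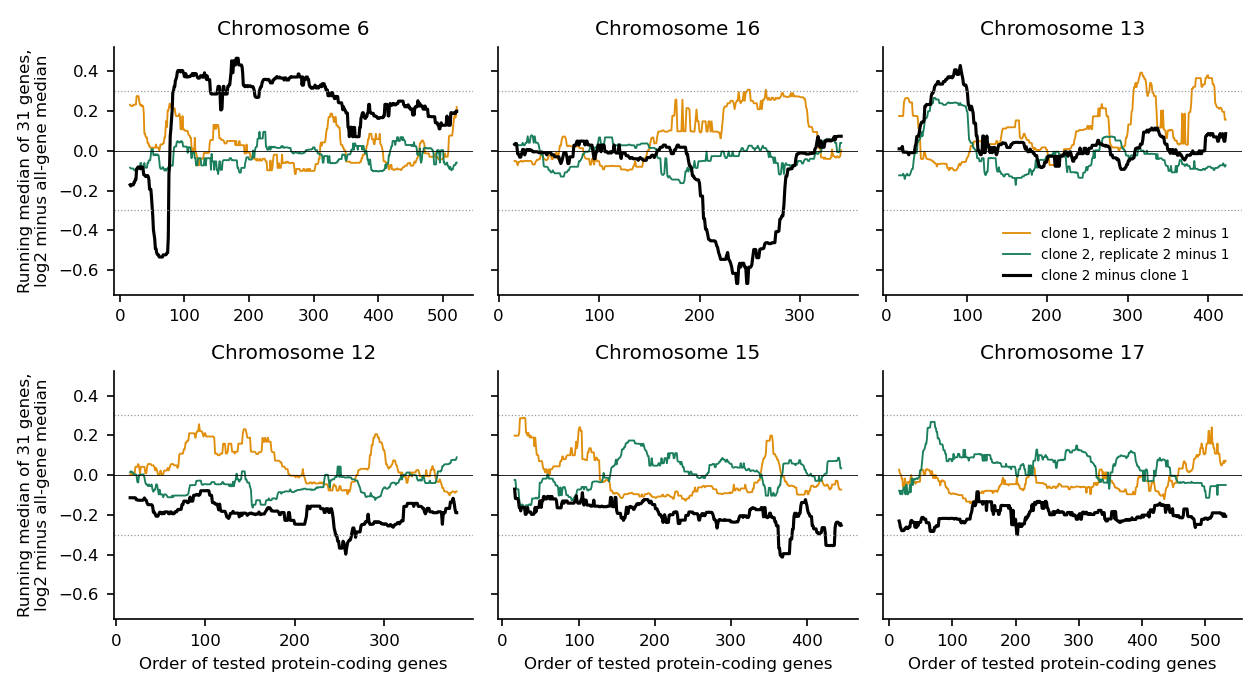
Running median of the log2 difference over 31 tested protein-coding genes in chromosome order, less the median of all genes, for 6 chromosomes; dotted lines mark 0.3 in each direction. Clone 2 minus clone 1 (black) dips to -0.67 on chromosome 16 and turns from -0.53 to 0.47 along chromosome 6, while chromosome 17 is shifted along its length without passing -0.3. Orange and green lines are replicate 2 minus replicate 1 of clones 1 and 2.

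The other 3 segments spanned 1.09 to 2.10 Mb. On chromosome 13, 41 genes from Hist1h4n to Hist1h2ba (21831767 to 23934156), mostly of the large histone cluster, had a median of 0.38, with 2 called higher and 1 lower. Clone 1 replicates differed there by -0.12 and clone 2 replicates by 0.24, and library pairs ran from 0.18 to 0.57. On chromosome 15, 18 genes from Slc48a1 to Kmt2d (97778520 to 98871204) were all below 0 with a median of -0.44, 6 of them called lower, and replicates of clones 1 and 2 differed by -0.09 and 0.07. On chromosome 12, 18 genes from Prox2 to Angel1 (85086385 to 86726460) had a median of -0.34 with 1 called in each direction, and replicates differed by -0.16 and 0.02. Medians of -0.29 and -0.30 over the 15 genes on either side show no edge to this segment within the lowered chromosome.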

How the data were processed

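Total RNA depleted of rRNA was sequenced in 6 libraries, 2 for each of WT, clone 1 and clone 2. The authors deposited raw read counts per gene for each library, with columns that ignore strand and for each strand; per the submitters' processing notes they used FastQC, STAR 2.6.0c and GRCm38. The reverse-strand counts (column 4) were used. Rows that name no gene, 46.6% to 50.5% of reads, were left out. Names and positions come from GENCODE M21, which matched 54079 of 54146 identifiers.

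All 6 libraries entered 1 fit with a coefficient per group in edgeR 4.0.16 (R 4.3.3): filterByExpr with a minimum count of 10, TMM scaling, the quasi-likelihood test and Benjamini-Hochberg adjustment over all genes tested, called below 0.05. Scripts were tested on simulated data. Alternatives used DESeq2 1.42.0, limma 3.58.1 with voom, other scaling, filters, strand and depth, a replicate block, and each library left out. Counts per library limit the precision, and fold floors and intervals cover counting error only.

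Members and gene lists were chosen with earlier results of these data known. Named genes are Mki67, the 12 largest rises and falls of well-expressed protein-coding genes, the 6 strongest genes with 0 counts in the other clone in each direction, up to 3 called members per list and direction, 3 long non-coding RNAs per direction, up to 4 called genes per segment and 5 markers; not all that the rule allows are printed. Lmod1, Tmsb4x, Myh9, Egr2, Egr3, CT010467.1, Fank1, Ptpre, Ikzf1, Ehhadh, Ppargc1a, Csrp1, Atp2b4 and Mogat2 were chosen after their values were seen. Some items are not reported here.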

Additional observations from a re-analysis of the deposited data

Results flagged for a closer look

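For 12 of the 13120 genes tested the clones were called on opposite sides of WT and also apart from each other. The difference between the clones was tested in the clone contrast of the same edgeR fit. The 3 contrasts share libraries, so their values for a gene are not independent. In 11 of the 12 genes clone 1 lay above WT and clone 2 below it. B4galt4 differed by -10.46 on the fitted log2 scale, a value that depends on the prior count because clone 2 had 0 counts. Acta1 differed by -5.38 between the clones, from 2.82 above WT in clone 1 and -2.56 in clone 2.

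Ikzf1, which encodes a lymphoid transcription factor, differed by -4.42 (1.70 in clone 1 and -2.73 in clone 2 against WT). Ehhadh, an enzyme gene of peroxisomal fatty acid oxidation, differed by -4.21 (1.30 and -2.92). In clone 2 both Ikzf1 and Ehhadh were at 0.126 and 0.133 CPM, below the floor of 3 counts, so the size of these differences is imprecise. Actg2 differed by -2.77 (0.89 and -1.89). For the secreted protein gene Srpx2 the clone difference was -2.44 (1.35 and -1.10), for the calcium pump gene Atp2b4 -2.23 (1.21 and -1.02) and for Plac8 -2.03 (0.50 and -1.53). Mogat2, an acyltransferase gene of triglyceride synthesis, stood at -1.75 (0.58 and -1.17), the actin-bundling gene Csrp1 at -1.39 (0.69 and -0.70) and Cdkn1a at -1.03 (0.58 and -0.45).

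Ppargc1a, a coactivator gene of mitochondrial biogenesis, was the 1 gene with the opposite order. Its difference was 3.47, from 0.516 and 0.967 CPM in WT, 0.305 and 0.129 in clone 1 and 2.14 and 3.12 in clone 2. Clone 1 replicate 2 and WT replicate 1 lay below the floor of 3 counts (0.194 and 0.775 CPM in these libraries). The size of this difference and the place of WT between the clones are therefore imprecise.

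Reads on the forward strand over more than 1 gene, a part of the tables that enters no comparison, numbered 216024 in clone 2 replicate 1 and 3382 to 23263 in the other 5 libraries. The cause was not tested.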

How the results depend on the processing

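Of the 465 genes called between the clones, DESeq2 called 355, limma-voom 448, library totals without TMM 368, strand-free counts 428 and the fit without small RNA and rRNA genes (added after seeing the data) 443. With no filter on low counts 813 genes were called (264 higher, 549 lower), of which 464 are shared, and the spread of chromosome medians was 0.349. With only the clone libraries 491 were called lower. Thinned to the shallowest library, 75 were called between the clones (17 higher, 58 lower), 1535 between clone 1 and WT and 1217 between clone 2 and WT, and the spread was 0.394. Tested against a minimum fold of 1.5, the counts were 120 (28 higher, 92 lower), 989 and 787. With the GC content and length trend removed (added after seeing the data), 894 were called, 399 higher and 495 lower. Strand-free counts turned the sign of CT010467.1, to 0.47. The cause was not tested beyond what each setting itself changes.

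With each library left out in turn, 156 to 1208 genes were called between the clones, 46 to 519 of them higher and 110 to 689 lower. Clone 1 against WT gave 2205 (without clone 1 replicate 2) to 4348 (without WT replicate 2), and clone 2 against WT 1669 (without clone 2 replicate 1) to 4010 (without WT replicate 2). The spread of chromosome medians ran from 0.409 to 0.444. A lone library left in a group is assumed to vary like those of the other groups.

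With the replicate number as a block, 634 genes were called, 63.4% of them lower, and all 465 calls were among them. Deviations of same-numbered libraries correlated over genes at 0.27 (WT with clone 1), -0.09 (WT with clone 2) and -0.11 (clone 1 with clone 2). These mixed values do not settle whether the replicate number pairs the libraries. Depth limits low genes most in WT replicate 1, where 3 counts equal 0.775 CPM.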
